A study of Mus musculus with 20 samples.

Results

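Messenger RNA was sequenced in 20 LLC1 tumors, of which 10 are described here, 5 from mice given vehicle and 5 from mice given KW6002 without cisplatin. The 10 tumors were chosen by their titles, which name the agent and a replicate number, and each tumor gave 1 library. LLC1 is an established Lewis lung carcinoma cell line of the C57BL mouse, and its cells were grown under the skin of the right flank in male C57BL6/J mice aged 8 to 10 weeks, which were allocated to the groups at random once the tumor reached 100 mm3. KW6002 (istradefylline) is an antagonist of the adenosine A2A receptor. The agent of vehicle replicate 1 is labelled vehicle and that of vehicle replicates 2 to 5 vehicle_vehicle. For the KW6002 tumors the label is KW alone, and it does not say whether those mice also received the carrier of cisplatin. The labels give neither the dose nor the day of collection. All 10 tumors share the cell line, the host strain and the site, and a tumor of this kind also holds cells of the host. The carrier of KW6002 was a mixture of DMSO, cremophor and saline.

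Adenosine gathers outside cells in tumors, where CD39 and CD73, the products of Entpd1 and Nt5e, make it from ATP. It signals through 4 receptors coupled to G proteins. The A2A and A2B receptors raise cyclic AMP, which activates protein kinase A and the transcription factor CREB, and in T cells and macrophages this pathway is known to restrain inflammatory and cytotoxic responses. The comparison of KW6002 with vehicle asks what blockade of the A2A receptor alone does to the RNA of the tumor, without cisplatin.

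Library totals ranged from 28.8 to 37.5 M counts in vehicle tumors (31.4 ± 3.56 M, SD, n = 5) and from 28.4 to 32.0 M in KW6002 tumors (30.8 ± 1.42 M). Between 23843 and 24877 genes had at least 1 count in a tumor. Levels are given as CPM, counts per M counts of the scaled library, when 1 gene is compared between tumors, and as TPM, which also divides by exon length, when genes are compared with each other. Library codes fall into a lower range of numbers, with vehicle replicate 1 and KW6002 replicates 1 and 2, and a higher range with the other 7 tumors. They are called earlier and later codes here, but the codes name no date or sequencing run. The libraries of 4 tumors stood apart by RNA of other cells, and several results rest on them. KW6002 replicate 1 held the most B, plasma and T cell RNA, KW6002 replicate 5 and vehicle replicate 3 the most skeletal muscle RNA, and vehicle replicate 2 the most fat cell RNA. Vehicle replicate 4 differed too, with the lowest sums of T and NK, B and plasma, and mast cell markers and the highest of red blood cell markers.

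The vehicle tumors expressed 15526 genes at a mean of at least 1 TPM, 9959 at 10 TPM and 78 at 1000 TPM. The KW6002 tumors expressed 15688, 9972 and 76 at the same levels. The most abundant transcript in vehicle tumors was Lgals1 (ENSMUSG00000068220, chromosome 15, 78926725 to 78930465), which encodes the sugar-binding protein galectin-1, at 15289 ± 951 TPM (SD, n = 5). It was followed by the mitochondrial transcripts mt-Cytb at 13240 ± 1629 TPM and mt-Co1 at 12853 ± 1516 TPM. Spp1, which encodes the secreted phosphoprotein osteopontin, stood at 6604 ± 551 TPM and the calcium-binding S100a6 at 5795 ± 429 TPM. Lyz2, the lysozyme of macrophages and neutrophils, reached 4572 ± 1124 TPM, and Col3a1, the collagen III chain of fibroblasts, 3465 ± 456 TPM. Col3a1 also had the highest count of any gene relative to library size, 8647 CPM, because its transcript is long. The short noncoding RNA Bc1 stood at 7072 ± 1073 TPM from 303 CPM, so its rank rests on its length, and its log2 fold change with KW6002 was 0.35 (95% interval -0.05 to 0.75, edgeR). The remaining genes of the first 20 encode ribosomal proteins, translation factors, mitochondrial complex I subunits, the chaperone Hsp90ab1, the MHC class I light chain B2m and Actb. In KW6002 tumors 19 of these 20 genes were again among the first 20.

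**Figure D1:**
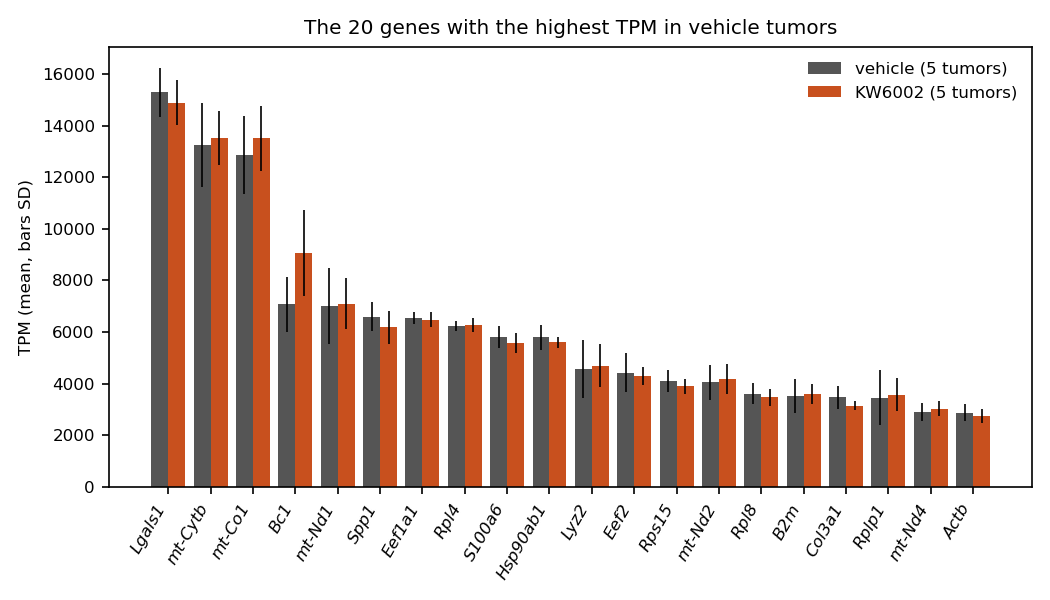
Mean level in TPM of the 20 most abundant genes of vehicle tumors, in vehicle (gray) and KW6002 tumors (orange), with bars for the SD of 5 tumors. Lgals1, mt-Cytb and mt-Co1 are the highest in both groups, and Bc1 shows the widest gap between the group means, 7072 against 9078 TPM.

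A few classes of genes took up similar shares of the summed TPM in both groups, which weights each gene per exon length and is not a share of counts. The 20 genes above held 12.3% ± 0.618 of the TPM in vehicle and 12.5% ± 0.348 in KW6002 tumors. Transcripts of the mitochondrial genome made up 4.22% ± 0.588 and 4.37% ± 0.412 of the TPM, and ribosomal protein genes 4.17% ± 0.136 and 4.11% ± 0.197. Collagen genes made up 0.632% ± 0.0972 of the TPM in vehicle and 0.586% ± 0.0330 in KW6002 tumors, and their ranges overlapped.

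No list of transcripts defines LLC1 cells in these files, so the label was read against epithelial, mesenchymal and lung lineage genes. Mesenchymal genes were abundant, with the intermediate filament gene Vim at 2813 ± 228 TPM and the matrix gene Sparc at 904 ± 78.3 TPM in vehicle tumors. Among the epithelial genes the simple keratin Krt18 stood high, at 746 ± 27.0 TPM, while the junction gene Cdh1 reached 1.64 ± 0.967 TPM and Epcam had between 0 and 4 counts per tumor. The junction gene Cldn3 and the surfactant gene Sftpc had 0 counts in all 10 tumors, which allows a level of up to 0.00964 CPM, that is, 3 counts in the 311 M counts of the 10 libraries. The highest of the lung lineage genes was Hopx, a homeodomain gene, at 56.2 ± 4.50 TPM. Of 15 mesenchymal genes tested 12 had a negative and 3 a positive log2 fold change with KW6002, with a median of -0.02.

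Host cell RNA was present in every tumor. The 13 macrophage markers summed to 3255 ± 480 CPM in vehicle and 3319 ± 362 CPM in KW6002 tumors, and the 11 fibroblast markers to 12012 ± 1267 and 10888 ± 775 CPM. Fibroblast genes such as Col3a1 can also be made by mesenchymal tumor cells. Endothelial markers summed to 233 ± 38.9 and 223 ± 39.9 CPM, and the pericyte and smooth muscle markers to 133 ± 28.0 and 120 ± 16.2 CPM. T and NK cell markers were sparse, at 11.1 ± 4.24 CPM in vehicle tumors, as were those of B and plasma cells, at 11.6 ± 3.86 CPM. In bulk RNA of this kind, fewer cells of a type cannot be told apart from less RNA per cell.

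**Figure D2:**
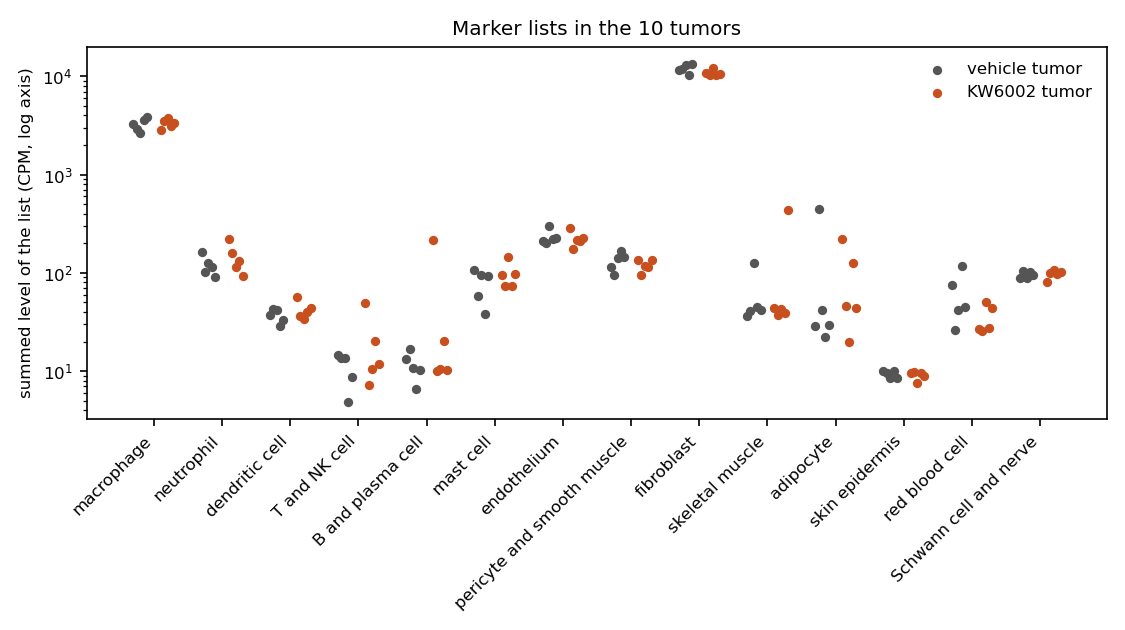
Summed CPM of 14 marker lists on a log axis, with 1 point per tumor, vehicle in gray and KW6002 in orange. Macrophage and fibroblast sums vary little among the 10 tumors, while single tumors stand far above the rest for B and plasma cells (216 CPM), skeletal muscle (439 and 125 CPM) and adipocytes (450 and 223 CPM). Col3a1 makes up most of the fibroblast sum, 8647 of 12012 CPM in vehicle tumors. The fibroblast markers Col1a1 and Postn are among the 200 most variable genes.

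Tumors of different groups were on average no further apart than tumors of the same group. Distance between tumors was the root mean square difference of log2 CPM over all 16665 tested genes. It averaged 0.450 within vehicle (0.373 to 0.509), 0.483 within KW6002 (0.393 to 0.585) and 0.454 between the groups (0.350 to 0.605). The mean between minus the mean within was -0.0126 (two-sided exact permutation P = 0.254, where 0.00794 is the smallest P the design allows). The tumors farthest from the other 9 were KW6002 replicate 5, at a mean distance of 0.520, and KW6002 replicate 1, at 0.506. Vehicle replicate 4 came next, at 0.482, and had the lowest sample weight in limma voom, 0.549. The first principal component (23.3% of the variance) ran from vehicle replicate 4 (-30.8) to KW6002 replicate 1 (41.7) with high Cfd, Cidec, Igkc and Adipoq at the end of KW6002 replicate 1, and the second (19.2%) to KW6002 replicate 5 and vehicle replicate 3 with high Myh4 and Xirp2.

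No single gene was called different between KW6002 and vehicle tumors. A gene was called at an adjusted P value under 0.05 with an absolute log2 fold change of at least 0.32, and 0 of 16665 tested genes (0%) met this in edgeR, where the smallest adjusted P value was 1.00. An unadjusted P value under 0.05 was found for 339 genes (2.03%), 218 of them higher and 121 lower in the KW6002 tumors. If no gene changed, a share of 0.05 would be expected at this limit, which is above the share found. DESeq2 and limma voom also called 0 genes, with 320 and 817 genes below 0.05 before adjustment. The groups did not overlap in 57 genes (0.342%), 35 of them higher and 22 lower in KW6002. Log2 fold changes had a median of -0.00 over all tested genes, and their 5th and 95th percentiles were -0.24 and 0.34. In the same model of 20 tumors, cisplatin against the same vehicle tumors gave 1762 called genes (10.6%).

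How small a change the design could have shown depended on the level of the gene. The values below come from the model of all 20 tumors, so the cisplatin and cotreated tumors enter the estimate of the spread. The 95% interval of the log2 fold change had a median half-width of 0.23 over all tested genes, or 1.17-fold. For the 3361 genes under 1 CPM in vehicle tumors it was 0.70 (1.63-fold), for the 3611 genes at 1 to 10 CPM 0.35 (1.28-fold), for the 7014 genes at 10 to 100 CPM 0.17 (1.12-fold) and for the 2679 genes at 100 CPM or more 0.14 (1.10-fold). In a model of only the 10 tumors the median half-widths of these classes were 0.62, 0.34, 0.16 and 0.12. In limma voom with sample weights they were 0.608, 0.309, 0.140 and 0.115, so the stated precision depends on the model. A change beyond 2-fold in either direction lay outside the interval of 89.0% of the genes. That share was 99.8% at 100 CPM or more, 99.0% at 10 to 100 CPM, 92.6% at 1 to 10 CPM and 56.0% under 1 CPM. Of the 1825 genes whose interval reached past 2-fold, 1480 were under 1 CPM. A log2 fold change of 0.32, the limit applied to calls, lay outside the interval of 54.2% of all genes, 93.2% of those at 100 CPM or more and 0% of those under 1 CPM.

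To be called, a gene must also pass the adjustment over all tested genes. A gene changed alone needs an unadjusted P value of 3.00e-06 or less, and at the spread estimated from the 20 tumors that took a median change of 4.37-fold under 1 CPM, 2.10-fold at 1 to 10 CPM, 1.42-fold at 10 to 100 CPM and 1.35-fold at 100 CPM or more. For a true change to pass with a power of 80%, the median was 5.34-, 2.33-, 1.49- and 1.41-fold in the same order. If 100 genes changed together, the P value needed was 0.0003 and the median change that reached it 2.75-, 1.66-, 1.27- and 1.23-fold. At 100 CPM or more that median, 0.297 on the log2 scale, lies below the limit of 0.32 that a call must also meet. For the genes that cisplatin changed in the same model, the called log2 changes had a median size of 1.24, 0.72, 0.44 and 0.42 in the same order of classes. With 1762 genes called, the P value needed there was far less strict than for a gene changed alone.

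**Figure D3:**
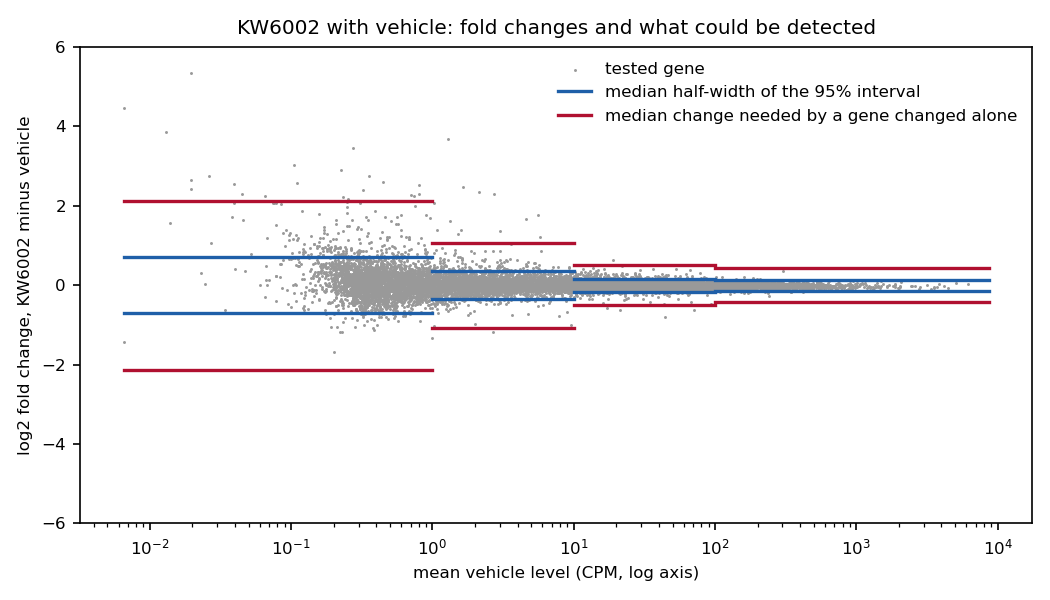
Log2 fold change of KW6002 minus vehicle against the mean vehicle level in CPM on a log axis, with 1 point for each of 16665 tested genes. Blue lines mark the median half-width of the 95% interval in 4 classes of level (0.70, 0.35, 0.17 and 0.14) and red lines the median change that a gene changed alone needs in order to be called (2.13, 1.07, 0.51 and 0.43).

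Among the adenosine receptors the target of KW6002 was scarce and the A2B receptor was the most abundant. On the TPM scale, Adora2b stood at 36.8 ± 5.50 in vehicle and 37.2 ± 5.01 in KW6002 tumors, and its log2 fold change was 0.00 (95% interval -0.26 to 0.27, edgeR). Adora2a, which encodes the A2A receptor, stood at 1.07 ± 0.232 TPM in vehicle and 1.15 ± 0.445 TPM in KW6002 tumors, from 18 to 48 counts per tumor. Vehicle replicates 1 to 5 had 0.829, 0.844, 1.11, 0.661 and 0.717 CPM of Adora2a, and KW6002 replicates 1 to 5 had 1.49, 0.742, 0.760, 0.801 and 0.651 CPM. The groups overlapped, and KW6002 replicate 1, the tumor with the most lymphocyte RNA, was the highest. The part of those cells in its level was not tested. The log2 fold change of Adora2a was 0.10 (-0.63 to 0.83), or 0.648- to 1.78-fold, and it was -0.17 without KW6002 replicate 1. Adora2a alone would have needed a 4.61-fold change to be called. The A3 receptor gene Adora3 stood at 0.484 ± 0.117 TPM in vehicle tumors with a log2 fold change of 0.17 (-0.38 to 0.71), which was 0.04 without vehicle replicate 4 and 0.51 with the 4 tumors richest in muscle, fat or lymphocyte RNA left out. The A1 receptor gene Adora1 had 0 to 82 counts per tumor and did not pass the filter on low counts. It was highest in vehicle replicate 2, at 2.88 CPM, and in KW6002 replicate 1, at 1.18 CPM, while the other 8 tumors had 0 to 0.256 CPM. Those 2 tumors also had the highest sums of fat cell markers, 450 and 223 CPM, against 19.6 to 125 CPM in the other 8, and the part of fat in Adora1 was not tested.

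**Figure D4:**
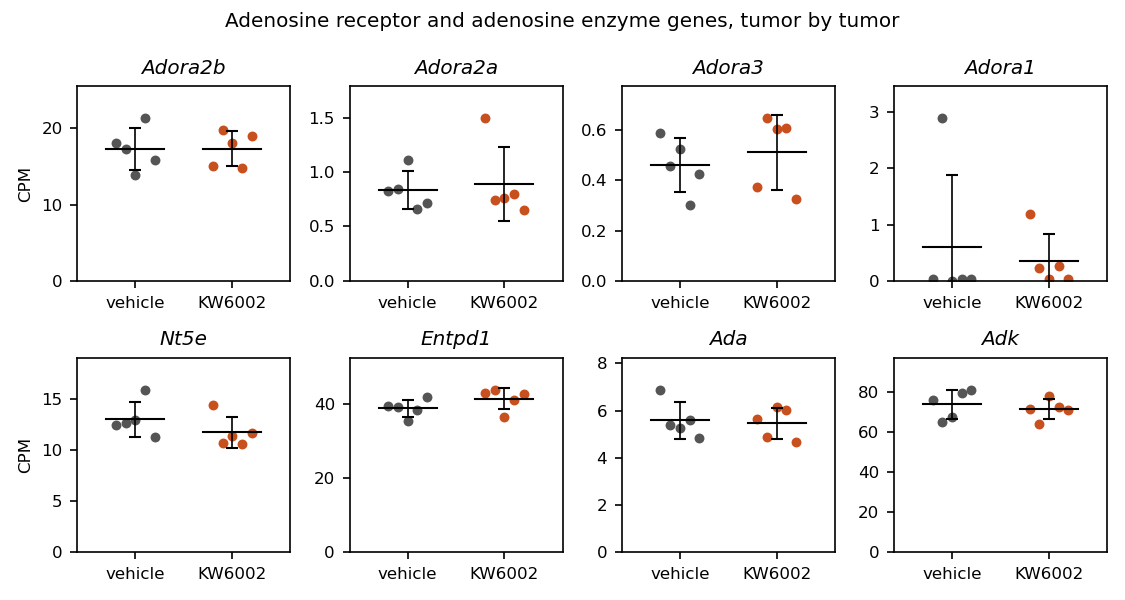
CPM of 4 adenosine receptor genes and 4 adenosine enzyme genes in each tumor, with the mean and SD of 5 vehicle (gray) and 5 KW6002 tumors (orange). The groups overlap in all 8 genes, single tumors lead Adora2a (1.49 CPM) and Adora1 (2.88 and 1.18 CPM), and Adora2b lies between 13.8 and 21.3 CPM in all 10.

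The genes that make and remove adenosine were measured about as precisely as other genes, with a median half-width of 0.25 against 0.23 over all tested genes. Nt5e, which encodes CD73 and makes adenosine from AMP, stood at 13.1 ± 1.72 CPM in vehicle and 11.8 ± 1.53 CPM in KW6002 tumors, a log2 fold change of -0.15 (-0.46 to 0.16). That change was -0.07 without vehicle replicate 4 and -0.27 with the 4 tumors richest in muscle, fat or lymphocyte RNA left out. Entpd1, which encodes CD39, stood at 38.9 ± 2.31 and 41.4 ± 2.86 CPM (0.09, -0.08 to 0.27). Of the enzymes that clear adenosine, the deaminase gene Ada had a log2 fold change of -0.03 (-0.28 to 0.22) and the kinase gene Adk one of -0.05 (-0.20 to 0.11). Over the other settings tried the values ran from -0.08 to 0.10 for Ada, from -0.14 to 0.02 for Adk and from 0.02 to 0.13 for Entpd1. Slc29a1, the equilibrative nucleoside transporter through which adenosine enters cells, stood at 121 ± 7.20 and 122 ± 12.3 CPM. Of the 17 genes of adenosine production, uptake and breakdown that were tested, 10 had a positive and 7 a negative log2 fold change, 0 were called, and 16 had a 95% interval inside 2-fold, as 89.0% of all tested genes had. Inside 1.5-fold there were 12 of the 17, and 73.1% of all tested genes.

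Genes that carry the signal from the receptor to the nucleus differed little between the groups. All 26 genes of cyclic AMP signaling were tested, 13 with a positive and 13 with a negative log2 fold change, and the median was -0.00, as it was over all genes. The intervals of 25 of the 26 lay inside 1.5-fold. Prkar1a, a regulatory subunit of protein kinase A, stood at 535 ± 19.3 CPM in vehicle and 512 ± 25.2 CPM in KW6002 tumors (log2 fold change -0.06, -0.21 to 0.08), and the stimulatory G protein gene Gnas at 797 ± 34.9 and 763 ± 41.5 CPM. The catalytic subunit gene Prkaca had a log2 fold change of -0.01 (-0.12 to 0.09) and Creb1 one of 0.01 (-0.22 to 0.24).

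CREB targets and immediate early genes gave a similar median with wider intervals. Of 25 tested, 14 had a positive and 11 a negative log2 fold change, 0 were called, and the median was 0.00. Their median half-width was 0.38, against 0.18 for the cyclic AMP genes. The intervals of 16 of the 25 lay inside 1.5-fold, beside 73.1% of all tested genes. Ier3, the most abundant of them, stood at 80.3 ± 23.2 CPM in vehicle and 73.8 ± 22.1 CPM in KW6002 tumors. The early response genes Fos (0.05, -0.72 to 0.81) and Egr1 (-0.35, -1.05 to 0.34) had wide intervals, while the nuclear receptor gene Nr4a1 (-0.10, -0.42 to 0.21) and the CREB family member Crem (0.00, -0.21 to 0.22) had narrower ones.

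CREB binds the palindrome TGACGTCA, and the promoters of these targets were searched for these letters from 250 bases before to 50 bases after the gene start in RefSeq (GRCm38.p6), where either strand reads the same. Of the 25 targets 19 had a promoter in the table, and 4 of them (21.1%) held the motif, against 3.41% of the promoters of tested genes and 2.03% of all 27025. The 4 sites are shown in capitals with 8 bases on each side, 5′ to 3′ on the strand of the gene, to place the data beside the sequence on which the pathway ends.
Dusp1: agggcgggTGACGTCAccgcccgg
Btg2: cccaataaTGACGTCAgtgagcga
Areg: ctggtccgTGACGTCAcgggcggt
Maff: tggggcggTGACGTCActgcatga
They lie at chr17:26508600-26508623 (minus strand), chr1:134079306-134079329 (minus), chr5:91139530-91139553 (plus) and chr15:79347483-79347506 (plus). Dusp1, a MAP kinase phosphatase, stood at 16.8 ± 1.22 CPM in vehicle and 16.8 ± 3.20 CPM in KW6002 tumors (log2 fold change -0.00, -0.50 to 0.50). The antiproliferative gene Btg2 had a log2 fold change of 0.22 (-0.09 to 0.52), the EGF receptor ligand gene Areg one of -0.07 (-0.31 to 0.17) and the small Maf factor gene Maff one of -0.07 (-0.42 to 0.28). The 390 tested genes with the motif had a median log2 fold change of -0.02. A match is a description of the letters and not evidence of binding.

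In leukocytes A2A signaling is known to restrain cytokines and cytotoxic effectors, and these lists were measured with less precision. Of 18 inflammatory cytokine and chemokine genes tested, 12 had a positive and 6 a negative log2 fold change, with 0 called, a median of 0.04 and a median half-width of 0.79. The chemokine gene Ccl2, the most abundant, stood at 246 ± 27.8 CPM in vehicle and 243 ± 35.6 CPM in KW6002 tumors. Tnf had a log2 fold change of 0.27 (-0.15 to 0.69) and Il6 one of -0.09 (-0.87 to 0.68). Of 13 cytotoxic effector and checkpoint genes 9 were positive and 4 negative. Only Pdcd1 among them, which encodes the checkpoint receptor PD-1, had an unadjusted P value under 0.05 in edgeR. Pdcd1 stood at 0.380, 0.738, 0.686, 0.138 and 0.196 CPM in vehicle replicates 1 to 5 and at 0.933, 0.613, 0.855, 1.67 and 0.723 CPM in KW6002 replicates 1 to 5, from 5 to 52 counts. Its log2 fold change was 1.18 (0.13 to 2.23), and the groups overlapped. Cd274, which encodes the PD-1 ligand PD-L1, stood at 20.3 ± 3.78 and 23.7 ± 5.11 CPM (0.23, -0.21 to 0.66). Pdcd1 was highest in KW6002 replicates 4 and 1, which also had the highest sums of T and NK cell markers, 20.5 and 49.7 CPM, and the part of those cells in the result was not tested.

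Most proliferation genes had slightly lower values in KW6002 tumors, and 0 were called. Of 24 tested, 23 had a negative log2 fold change, the median was -0.12 with a median half-width of 0.18, and all 24 intervals lay inside 1.5-fold. The summed level of the list was 3573 ± 245 CPM in vehicle (3152 to 3749) and 3330 ± 268 CPM in KW6002 tumors (2939 to 3620), so the groups overlapped. Mki67, which marks cycling cells, stood at 385, 350, 439, 454 and 455 CPM in vehicle replicates 1 to 5 and at 400, 323, 388, 361 and 380 CPM in KW6002 replicates 1 to 5. Its log2 fold change was -0.17 (-0.37 to 0.03). Topoisomerase gene Top2a had a log2 fold change of -0.15 (-0.30 to 0.00), and the mitotic kinase genes Bub1 (-0.17, -0.34 to -0.01) and Aurka (-0.22, -0.44 to -0.01) had unadjusted P values under 0.05, 0.0357 and 0.0407. These genes rise and fall together in the cell cycle, so the 23 negative values are not separate observations. The median of the list ran from -0.17 to -0.06 over the other settings tried.

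Genes of stress, damage and oxygen response gave intervals inside 2-fold for 18 of 19 p53 targets, 22 of 23 hypoxia genes and 11 of 13 heat shock genes, beside 89.0% of all tested genes. Of the 19 p53 targets tested 13 had a positive and 6 a negative log2 fold change, and the cell cycle inhibitor Cdkn1a stood at 312 ± 57.2 CPM in vehicle and 319 ± 44.7 CPM in KW6002 tumors (0.04, -0.20 to 0.27). The log2 fold change of Cdkn1a was -0.04 without KW6002 replicate 2. It was 0.17 with the 4 tumors richest in muscle, fat or lymphocyte RNA left out. Of the 23 hypoxia and glycolysis genes 21 were negative, with a median of -0.05 and a median half-width of 0.43. Of the 13 heat shock genes 6 were positive and 7 negative. Among 16 clock genes tested only Cry1, a repressor of the circadian clock, had an unadjusted P value under 0.05 in edgeR, and its groups did not overlap, at 25.5 ± 0.733 CPM in vehicle and 28.7 ± 1.06 CPM in KW6002 tumors (0.17, 0.03 to 0.31). Over all tested genes the groups did not overlap in 0.342%, and Cry1 is named for its P value, which favors such a gap.

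Transporters of platinum and other drugs were included because the study gave cisplatin to the other groups. Of 11 tested, 3 had a positive and 8 a negative log2 fold change, and 10 had an interval inside 1.5-fold. The copper and platinum importer gene Slc31a1 stood at 87.1 ± 7.33 and 85.1 ± 3.27 CPM (-0.03, -0.15 to 0.08). Abcg2, an efflux pump, had a log2 fold change of -0.17 (-0.35 to -0.00) at an unadjusted edgeR P value of 0.0457. The exporter genes Slc47a1 and Abcc2 had at most 6 and 4 counts in a tumor and were not tested.

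The genes with the smallest P values came from several classes. The lowest unadjusted edgeR P value, 0.00104, belonged to Spn (ENSMUSG00000051457, chromosome 7, 127132232 to 127137823), which encodes the leukocyte sialoglycoprotein CD43. Spn stood at 6.87, 7.98, 7.51, 6.69 and 6.59 CPM in vehicle replicates 1 to 5 and at 11.7, 10.6, 8.26, 10.5 and 8.28 CPM in KW6002 replicates 1 to 5. Every KW6002 tumor was above every vehicle tumor, by a log2 fold change of 0.47 (0.21 to 0.73), which ran from 0.33 to 0.54 over the other settings tried. Fgd3 also did not overlap, at 14.5 ± 0.783 and 17.7 ± 1.26 CPM (0.29, 0.12 to 0.46). Over all tested genes the groups did not overlap in 0.342%. Both genes were picked for small P values, which favors such a gap, so nothing is read from it. Next came the myeloid lectin gene Clec4a1 (0.32), the bile acid synthesis gene Hsd3b7 (0.44), the phospholipase gene Plcb2 (0.39) and Snord83b (0.46), a small nucleolar RNA that lies inside the gene Rpl3, whose reads it may share.

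Of the 6 genes with the smallest P values among negative changes, 2 did not overlap, as 0.342% of all tested genes did not. Genes picked for small P values favor such a gap, so nothing is read from the count. Hmmr, a hyaluronan receptor of the mitotic spindle, stood at 62.7, 61.0, 61.5, 68.4 and 69.9 CPM in vehicle replicates 1 to 5 and at 60.4, 47.0, 55.5, 53.3 and 58.5 CPM in KW6002 replicates 1 to 5. Its highest KW6002 value lay just under its lowest vehicle value, and its log2 fold change was -0.24 (-0.41 to -0.06). Pcdhga10, a protocadherin whose constant exons are shared by the genes of its cluster, so that its count is uncertain, stood at 13.0 ± 0.543 and 10.8 ± 1.11 CPM. The others were Exd1 (-0.47), the mitotic motor gene Cenpe (-0.22), the antisense transcript Chn1os3 (-0.47) and Pros1 (-0.14), which encodes the anticoagulant protein S. All 12 genes had an adjusted edgeR P value of 1.00, and none changed sign in the 22 other settings tried. Those settings reuse the same tumors from which the genes were picked, which favors a stable sign, so nothing is read from it.

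The lymphocyte lists had higher values in KW6002 tumors, and their medians followed a single tumor. B and plasma cell markers summed to 13.3, 16.9, 10.8, 6.55 and 10.2 CPM in vehicle replicates 1 to 5 and to 216, 10.0, 10.6, 20.1 and 10.2 CPM in KW6002 replicates 1 to 5. One tumor, KW6002 replicate 1, was far above the other 9, which overlapped. Of 9 members measured 6 passed the filter on low counts, and all 6 had an unadjusted edgeR P value under 0.05, against 2.03% of all tested genes, Igkc with a log2 fold change of 3.68 (0.79 to 6.57) and Jchain, the joining chain of secreted antibody, with 3.45 (1.30 to 5.61). The median log2 fold change of the list was 2.75 with all tumors and 0.17 without KW6002 replicate 1. With all tumors kept it was 1.23 over genes with at least 10 counts in every tumor, 1.45 with the replicate block and 0.89 in limma voom. T and NK cell markers summed to 14.7, 13.7, 13.7, 4.84 and 8.67 CPM in vehicle and to 49.7, 7.19, 10.5, 20.5 and 11.8 CPM in KW6002 tumors. Of 13 tested, 12 had a positive log2 fold change, among them the T cell receptor component Cd3e at 1.41 (0.01 to 2.80) and the coreceptor chain Cd8a at 1.78 (0.43 to 3.13). The list's median was 1.18 with all tumors, 0.30 without KW6002 replicate 1 and 0.93 to 1.42 without any other tumor. It was 0.36 over genes with at least 10 counts in every tumor, 0.72 with the replicate block and 0.80 in limma voom.

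Interferon response genes varied with several tumors. All 24 interferon response genes had a positive log2 fold change, with a median of 0.17, a median half-width of 0.57 and 0 called. The median was 0.04 without KW6002 replicate 1, 0.10 without vehicle replicate 4 or vehicle replicate 5, 0.27 without vehicle replicate 2, and 0.23 with the 4 tumors richest in muscle, fat or lymphocyte RNA left out. Their summed level was 525 ± 74.7 CPM in vehicle and 580 ± 94.0 CPM in KW6002 tumors, with the highest sum, 737 CPM, in KW6002 replicate 1. Without that tumor the median of the dendritic cell list was 0.00 in place of 0.38, and that of the neutrophil list 0.02 in place of 0.21. With any other tumor left out they ran from 0.18 to 0.54 and from 0.10 to 0.38, and over genes with at least 10 counts in every tumor the dendritic cell median was 0.16. KW6002 replicate 1 carries an earlier library code, and over the later codes alone the medians were 0.32 for B and plasma cells, 0.61 for T and NK cells and 0.09 for the interferon response. Over the same codes they were 0.10 for dendritic cells and 0.03 for neutrophils.

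Red blood cell genes had lower values in KW6002 tumors, and 0 were called. Hbb-bs, an adult beta globin gene, stood at 55.8, 18.6, 32.0, 81.1 and 35.1 CPM in vehicle replicates 1 to 5 and at 19.8, 18.5, 39.0, 19.9 and 31.4 CPM in KW6002 replicates 1 to 5. The groups overlapped, and vehicle replicates 4 and 1 were highest. Its log2 fold change was -0.79 (-1.41 to -0.18), and reads of Hbb-bs and its near-identical copy Hbb-bt may be split between them. The median of the 5 genes tested was -0.75, -0.39 without vehicle replicate 4, -0.46 over the later codes alone and -1.15 with the 4 tumors richest in muscle, fat or lymphocyte RNA left out.

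The spread between tumors of one group was small for most genes. The SD of log2 CPM, pooled within the groups over 8 residual degrees of freedom, had a median of 0.158 over 16665 genes, with 5th and 95th percentiles of 0.0605 and 0.627. Its median was 0.156 in vehicle and 0.148 in KW6002 tumors. An SD of at least 1, a 2-fold step, was reached by 187 genes (1.12%), and by 42 of the 11789 protein-coding genes with a mean of at least 50 counts, from which the most variable genes were ranked.

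Skeletal muscle and fat made up most of the 20 most variable genes. Myh4, the fast myosin heavy chain IIb, had the largest SD, 3.74. It stood at 0.0345, 0, 13.5, 0 and 0.0326 CPM in vehicle replicates 1 to 5 and at 0.529, 0.129, 0, 0.0320 and 66.3 CPM in KW6002 replicates 1 to 5. One tumor of each group, vehicle replicate 3 and KW6002 replicate 5, held nearly all of it. The same tumors led the skeletal actin gene Acta1 (22.2 and 72.5 CPM), the creatine kinase gene Ckm (4.93 and 21.4 CPM), the giant sarcomere gene Ttn (9.89 and 52.4 CPM), and Xirp2 (3.53 and 17.1 CPM), which had 0 counts in the other 8. Mybpc2, Atp2a1, Tnnc2, Neb and Myh1, further genes of muscle fibers, were also highest in these tumors. The muscle list had 16 of 16 positive log2 fold changes with a median of 1.99 and a median half-width of 4.05, against 0.23 over all genes. The median was -1.87 without KW6002 replicate 5 and 4.82 without vehicle replicate 3, so its sign rested on 1 tumor. It was 0.86 over genes with at least 10 counts in every tumor, 1.12 in a model of only the 10 tumors and 0.15 in limma voom.

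Fat genes followed other tumors. Adipoq, the fat cell hormone adiponectin, stood at 0.449, 26.6, 0.490, 0.0550 and 0.228 CPM in vehicle replicates 1 to 5 and at 12.8, 1.71, 0.190, 6.37 and 0.904 CPM in KW6002 replicates 1 to 5. Vehicle replicate 2 was highest, followed by KW6002 replicates 1 and 4. Cfd (adipsin), Cidec and Plin4, which encode lipid droplet proteins, and Retn (resistin) had the same 3 tumors on top, as had Pck1, a source of the glycerol backbone of stored fat, and Hp, which encodes haptoglobin. The median log2 fold change of the adipocyte list was -0.34, 4.07 without vehicle replicate 2, -1.24 without KW6002 replicate 1 and -0.61 to -0.08 without any other tumor. Its sign also turned with the replicate block (0.58), in limma voom (2.13) and with the 4 tumors richest in muscle, fat or lymphocyte RNA left out (3.75), and it was -1.36 over the later codes alone. Car3 and Cyp2e1, which fat also expresses, completed this group. Of the 20 genes, 8 are members of the skeletal muscle list and 6 of the adipocyte list. The last of the 20 was Cxcl13, a chemokine that attracts B cells, at 10.3 CPM in KW6002 replicate 1 and 0.0550 to 2.92 CPM in the other 9. Its SD was 1.85, and the gene next in rank, outside the 20, had 1.83.

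**Figure D5:**
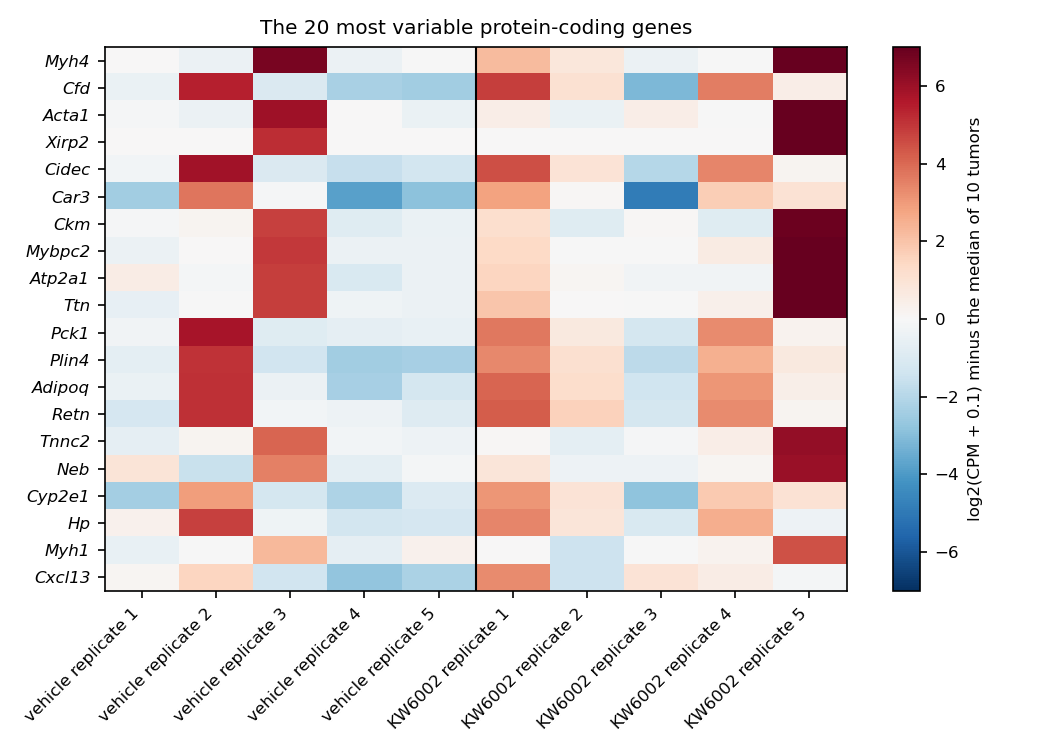
Level of the 20 most variable protein-coding genes in each of the 10 tumors, as log2(CPM + 0.1) minus the median of the 10, red above and blue below it, with colors saturated at 7. Muscle genes are red in vehicle replicate 3 and KW6002 replicate 5, and fat genes in vehicle replicate 2 and KW6002 replicates 1 and 4.

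Beyond the first 20, the 200 most variable genes again followed few tumors. KW6002 replicate 1 was the highest tumor for 97 of the 200, vehicle replicate 2 for 29, vehicle replicate 1 for 21, KW6002 replicate 5 for 18 and KW6002 replicate 3 for 16, while KW6002 replicate 4 was highest for 0. Over the 10 tumors, with group means removed, 109 of the 200 had a Pearson correlation of log2 CPM of at least 0.9 with the mean log2 CPM of the tested members of a marker list, the gene itself left out. That mean weights members equally, so it can differ from the summed CPM, which follows the most abundant members. These correlations are a description of 10 points dominated by single tumors. The list most alike was T and NK cells for 22 genes, fibroblasts for 20, skeletal muscle and adipocytes for 16 each, B and plasma cells for 15, neutrophils for 9, mast cells for 6, dendritic cells for 4 and red blood cells for 1. The 6 mast cell genes were each highest in KW6002 replicate 3, with the tryptase gene Tpsb2 at 33.0 CPM there and 4.98 to 19.4 CPM in the other 9 tumors. With vehicle replicates 2 and 3 and KW6002 replicates 1 and 5 left out, 10 of the 20 most variable genes were again among the first 20. The 10 that were not are the muscle genes named above. In that set 0 genes were called between KW6002 and vehicle by edgeR, with 401 at an unadjusted P value under 0.05.

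The least variable genes show how close tumors could be. Among genes with a mean of at least 500 counts, 9530068E07Rik had the smallest SD, 0.0197, at 220 ± 2.84 CPM in vehicle and 220 ± 3.15 CPM in KW6002 tumors. Nup88, a nuclear pore gene, stood at 152 ± 2.33 and 152 ± 3.20 CPM, and the phosphatase gene Ptpn11 at 182 ± 3.25 and 182 ± 3.49 CPM. The cell cycle transcription factor gene E2f8 stood at 98.2 ± 1.49 and 92.7 ± 1.26 CPM, and Eif4enif1, which represses translation, at 119 ± 1.86 and 124 ± 2.37 CPM. In neither gene did the groups overlap, as they did not in 0.342% of all tested genes. Genes picked for a small SD within groups favor such a gap, so nothing is read from it. The log2 fold changes of E2f8 and Eif4enif1, -0.08 (-0.24 to 0.07) and 0.06 (-0.05 to 0.16), had intervals that include 0.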

How the data were processed

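The deposited file holds raw counts of reads per Ensembl gene, whole numbers and not normalized. Per the labels and the study's methods, the authors made stranded poly(A) libraries, aligned single-end reads to mm10 with STAR, kept uniquely aligned reads and made the deposited counts with HTSeq version 0.6.1p1 in union mode, after bcl2fastq version 2.17.1.14 (tools and build as in the submitters' processing notes). The strand option was not stated. No count column was left unused (0).

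Of 35226 genes, 35142 matched a symbol. Genes were filtered with filterByExpr, leaving 16665, scaled by TMM and fitted with edgeR version 4.0.16 (quasi-likelihood, robust, R version 4.3.3) on all 20 tumors with 4 group means. Tests were two-sided and P values adjusted by Benjamini-Hochberg over all tested genes. Calls used an adjusted P value under 0.05 and an absolute log2 fold change of at least 0.32. Distances, SDs and principal components used log2 CPM with a prior count of 2. TPM was computed here from counts and annotated exon lengths, and symbols and positions are from the Ensembl annotation of GRCm38. Alternatives were DESeq2 version 1.42.0, limma version 3.58.1 (voom with sample weights), other scalings, filters and priors, a replicate block, the range of library codes, and each tumor left out. Leaving out 4 tumors together was chosen after seeing the data.

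Genes to be named were picked by rule: 12 listed genes, the 6 positive and 6 negative changes with the smallest P values at a mean of at least 50 counts, the 20 highest by TPM, the 20 most and 5 least variable, and of each of 31 lists the top, highest and lowest member. Not every gene picked in this way is named in the text. Others named here were chosen from the same lists or after their values were seen. The tumors, lists and tests were chosen with earlier results of these data known. The tests were tried on simulated data. Reads carried no molecular identifiers, so the limit set by a count of 0 covers counting error only. No 2 libraries were as close as counting error allows, with a mean chi-square per gene of 8.49 to 43.9 over 45 pairs. Each library is 1 tumor, so P values measure the spread between tumors.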

Additional observations from a re-analysis of the deposited data

Results flagged for a closer look

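In each group of 5 tumors, the gap between the extreme tumor and its nearest neighbor was divided by the range of the group, and values above 0.71, Dixon's limit for 5, were taken as a tumor far from the others. Of 92 groups looked at (14 marker lists and 32 genes in both groups), 39 passed. Chance alone flags about 1 in 20 groups, but 20 of the genes were chosen for their large spread within groups, which favors passing, so the count cannot be set against chance. Genes of one list also share their tumors.

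Vehicle replicate 3 and KW6002 replicate 5 stood apart for skeletal muscle. For the summed markers the ratios were 0.913 (125 CPM) and 0.984 (439 CPM). In the order vehicle, KW6002 they were 0.997 and 0.992 for Myh4, 0.995 and 0.997 for Acta1, 1.00 and 1.00 for Xirp2, and 0.979 and 0.985 for Ckm. They were 0.991 and 0.991 for Mybpc2, 0.967 and 0.988 for Atp2a1, and 0.989 and 0.980 for Ttn. For the remaining muscle genes they were 0.969 and 0.989 for Tnnc2, 0.865 and 0.984 for Neb, and 0.853 and 0.963 for Myh1. Vehicle replicate 3 also led the endothelial markers, at 300 CPM with a ratio of 0.744.

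Vehicle replicate 2 stood apart for fat, with a ratio of 0.955 for the summed adipocyte markers (450 CPM). It was 0.988 for Cfd, 0.991 for Cidec, 0.984 for Adipoq, 0.988 for Retn, 0.986 for Plin4, 0.995 for Pck1, 0.936 for Car3, 0.957 for Cyp2e1 and 0.970 for Hp (323 CPM). Adora1 was far above the other vehicle tumors there too (0.988, 2.88 CPM).

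KW6002 replicate 1 stood apart for the summed B and plasma cell markers (0.951, 216 CPM) and for the B cell chemokine gene Cxcl13 (0.830, 10.3 CPM). Among the 5 KW6002 tumors it also led Adora2a (0.822, 1.49 CPM), Adora1 (0.805, 1.18 CPM) and Nt5e (0.712, 14.4 CPM). What set these tumors apart was not tested.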

How the results depend on the processing

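The count of genes called between KW6002 and vehicle was 0 under every alternative tried, and at an unadjusted P value under 0.05 the count ran from 213 of 14048 genes (at least 10 counts in every tumor) to 1049 of 35226 (no filter on low counts). Without a filter, the median half-width of the 95% interval was 1.14 on the log2 scale and 42.7% of genes had an interval inside 2-fold, because genes with few counts enter. With each tumor left out in turn these values ran from 0.241 to 0.251 and from 85.9% to 87.3%, the count called was 0 and the distance between minus within groups ran from -0.0222 to -0.00115. Over later codes alone they were 0.274 and 81.5%, in a model of only the 10 tumors 0.197 and 94.2%, and with the 4 tumors left out 0.309 and 79.4%. With the replicate block 0 genes were called, 287 had an unadjusted P value under 0.05, and the half-width was 0.235 with 88.7% inside 2-fold. Same-numbered tumors of the 2 groups correlated at -0.09 to 0.11 in their deviations from the group means. No vehicle tumor correlated best with the KW6002 tumor of its own number, though for replicate 1 the values were close, 0.114 against 0.138. The same check was not made for the KW6002 tumors. The pairing changed no call, and it turned the sign of the adipocyte median (0.58). Of the 20 most variable genes, 18 to 20 were kept with a tumor left out, 10 with the 4 tumors left out, and 2 at a mean of at least 500 counts, since most of the 20 are below it. Of the 20 most abundant genes, 19 to 20 were kept with a vehicle tumor left out, and 10 when ranked by CPM in place of TPM. Of 980 gene values under alternatives, 914 stayed within 1 SE, and 23 of 46 genes changed sign in some setting, none of them called. The setting without a fold limit alters only the calls, so its gene values equal the main ones by construction. The SE is that of each gene, so a gene with a wide SE can shift far and still count as within it. The share is therefore no measure of stability. Under 1 CPM, 1480 of 3361 genes had an interval reaching past 2-fold, and counting error was not separated there from spread between tumors.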

Other observations

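Some gene groups that belong to no question above were measured in the same way, and 0 of their members were called. Mast cell markers summed to 77.8 ± 28.8 CPM in vehicle and 96.3 ± 28.7 CPM in KW6002 tumors (SD, n = 5), and 7 of 8 had a positive log2 fold change, with a median of 0.39. That median was 0.11 without KW6002 replicate 3, 0.17 without vehicle replicate 4, 0.31 to 0.55 without any other tumor, 0.75 over the later codes alone, 0.23 over genes with at least 10 counts in every tumor and 0.11 in limma voom. The chymase gene Cma1 stood at 11.5 ± 4.81 and 15.3 ± 5.59 CPM. Of 11 fibroblast genes tested 10 were negative, with a median of -0.13, which was 0.00 over the later library codes alone and -0.18 to -0.05 with each tumor left out in turn. Col1a1 stood at 160 ± 55.9 and 140 ± 54.1 CPM, far below Col3a1 in the same tumors, at 8647 ± 1073 and 7806 ± 466 CPM.

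Of 7 protein-coding genes of the mitochondrial genome tested, 6 had a positive log2 fold change, with a median of 0.03, and the 9 measured summed to 13674 ± 1988 and 14083 ± 1319 CPM. Skin epidermis markers were sparse, at 9.31 ± 0.739 and 9.07 ± 0.893 CPM, and nerve markers reached 95.6 ± 7.72 and 97.6 ± 9.96 CPM. Gapdh, a glycolytic enzyme gene often used as a reference, stood at 35.8 ± 3.89 and 37.4 ± 4.93 CPM. Its many pseudogene copies share sequence with it and reads that aligned to several places were not counted, so its level is uncertain.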
